A study of Mus musculus with 8 samples.

Results

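Expression of Trp53, the gene for p53, and of 9 genes that p53 is known to activate was compared between newborn mouse epidermis with and without Eed. The 10 genes were taken as a list of symbols (Trp53, Mdm2, Cdkn1a, Ccng1, Bax, Bbc3, Sesn2, Phlda3, Trp53inp1 and Perp), and a probe belonged to one of them when its RefSeq accession mapped to that symbol. All 10 had a probe that passed the filter on dim signals, so they make up 10 of the 23139 genes and other targets tested. RNA came from back skin epidermis of P0 newborn C57BL/6 mice, 4 EED cKO and 4 control (labelled CTL), described in the labels as biological replicates. In EED cKO mice K14-Cre, active in epidermal stem cells, recombines the Eed flox/flox alleles, so that the dermis and other cells without K14-Cre keep Eed, a subunit of the Polycomb repressive complex PRC2. Each of the 8 arrays carried 1 sample in a dye and Universal Mouse Reference RNA, the same on every array, in the other dye. The sample was in Cy3 on replicates 1 and 3 and in Cy5 on replicates 2 and 4 of both genotypes.

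p53 is a transcription factor that is held at a low level by Mdm2, a ubiquitin ligase that marks it for degradation and whose own gene p53 activates. Damaged DNA, oncogene activity and the Arf protein made from Cdkn2a loosen this hold, and p53 then activates genes that stop the cell cycle (Cdkn1a, Ccng1), start mitochondrial apoptosis (Bax, Bbc3) or alter stress and growth signalling (Sesn2, Phlda3, Trp53inp1). Much of the control of p53 acts on the protein, which an array of RNA does not measure. Perp, a membrane protein of desmosomes, is both a p53 target and, in stratified epithelia, a target of the relative of p53 encoded by Trp63. Eed is needed for the histone mark that PRC2 places at silent genes, and Cdkn2a is a well known gene under that mark.

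The promoters of the pair of genes whose RNA differed (Ccng1 and Sesn2) and of the other pair with a p53 element near a start are shown here, so that the sequence can be read beside the values. RefSeq promoter windows of 300 bases on GRCm38.p6, running from 250 bases before a start to 50 after it, were found for 8 of the 10 genes, as 11 windows because some genes have several starts. The p53 response element consists of a pair of 10-base copies of the p53 consensus, which reads the same on both strands, and was searched with a spacer of 0 to 13 bases, the central C and G of each copy kept and up to 2 mismatches in all. Such an element was in 4.09% of all 32851 windows and, with 0 mismatches, in 24 of them (0.0731%). It was in 3 of the 11 windows, in Ccng1 with 1 mismatch and spacer 0, in the upstream start of Cdkn1a with 0 mismatches and spacer 12, and in Bax with 2 mismatches and spacer 5. The 250 bases before each start follow, 5′ to 3′ in the direction of the gene. The 10-base copies of at most 1 element per window are in capitals. Where several pairs met the limits, the first with the fewest mismatches was taken, whatever its spacer. They lie at chr11:40755287-40755536 on the minus strand for Ccng1, chr4:132510457-132510706 on the minus strand for Sesn2, chr17:29090729-29090978 on the plus strand for Cdkn1a and chr7:45466899-45467148 on the minus strand for Bax.
Ccng1: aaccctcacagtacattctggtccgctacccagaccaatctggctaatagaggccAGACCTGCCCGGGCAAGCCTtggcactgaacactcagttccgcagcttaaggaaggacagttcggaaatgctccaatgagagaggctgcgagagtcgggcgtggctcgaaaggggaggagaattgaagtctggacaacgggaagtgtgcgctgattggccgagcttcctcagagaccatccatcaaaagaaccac
Sesn2: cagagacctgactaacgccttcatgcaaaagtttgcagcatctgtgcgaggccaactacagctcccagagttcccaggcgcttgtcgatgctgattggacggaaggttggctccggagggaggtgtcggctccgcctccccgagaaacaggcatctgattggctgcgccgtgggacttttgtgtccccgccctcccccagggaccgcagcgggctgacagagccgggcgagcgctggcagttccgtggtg
Cdkn1a (upstream start): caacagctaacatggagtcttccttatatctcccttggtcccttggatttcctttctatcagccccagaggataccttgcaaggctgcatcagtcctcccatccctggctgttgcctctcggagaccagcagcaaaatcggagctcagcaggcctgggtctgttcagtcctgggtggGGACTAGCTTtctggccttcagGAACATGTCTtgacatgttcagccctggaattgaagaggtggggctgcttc
Bax: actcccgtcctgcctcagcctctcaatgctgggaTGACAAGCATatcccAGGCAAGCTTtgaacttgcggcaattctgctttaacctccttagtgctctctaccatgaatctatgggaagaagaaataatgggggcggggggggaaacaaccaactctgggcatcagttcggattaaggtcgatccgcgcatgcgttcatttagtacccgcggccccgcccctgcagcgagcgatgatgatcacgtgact
The element in capitals lies at positions -195 to -176 from the start in Ccng1, -73 to -42 in Cdkn1a and -216 to -192 in Bax. It is not the only pair within the search limits in Cdkn1a and Bax. In Cdkn1a the copy GAACATGTCT is directly followed by tgacatgttc, and these form such a pair without a spacer. In the window of Sesn2 no element was found. The downstream Cdkn1a start and the windows of Trp53, Mdm2, Bbc3 and Phlda3 held no element either, although those of Trp53 and Mdm2 held a single exact 10-base copy, as did 8.36% of all windows. A match describes the letters only.

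Eed itself checked the labels. Its log2 ratio of sample over reference was -1.74, -2.04, -1.78 and -1.66 in EED cKO against -0.18, -0.46, -0.31 and -0.43 in control, a fall to 0.364 of the control level (adjusted p = 2.13e-05). Krt5, Krt14, Krt1 and Krt10, which define the epidermal layers, were above the reference on every array, at log2 ratios from 2.78 to 5.20. Probes well above background in the sample channel made up 52.2% to 64.5% of the array in EED cKO and 50.5% to 64.5% in control. All 8 arrays were on 1 slide with 1 scan time. Genotype and slide row cannot be told apart, because each genotype filled a row of its own. In the reference channel, which holds the same RNA everywhere, none of the 10 genes was called between the rows (adjusted p from 0.537 to 0.983), and 117 of the 23139 targets were. Y-linked RNA was high on control replicates 2 and 3 only and on no EED cKO array, so the genotypes were not balanced for it. Xist RNA was lowest on the same control replicates (log2 ratio -2.49 and -1.85, against -1.07 to -0.46 on the other arrays). By these RNAs the genotypes were not balanced for sex. With the mean Y-linked ratio as a covariate Ccng1 and Sesn2 were again the genes called of the 10. All targets called then went from 5024 to 2804.

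Of the 10 genes, Ccng1 rose 1.66-fold and Sesn2 rose 1.29-fold in EED cKO, while Trp53 and 7 of the targets did not pass the test. A gene was called at an adjusted p below 0.05 in limma. The 2 of 10 called genes, 20%, stand beside 21.7% of all targets called, of which 11.8% were higher and 9.93% lower (2727 and 2297 targets, but 1014 and 1540 with median centring in place of loess). At a further limit of a 2-fold change 0 of the 10 were called, against 1.2% of all targets. At an unadjusted p below 0.05 there were 3 of 10, with Perp as the third, beside 8293 of the 23139 targets. Groups did not overlap for Ccng1 and Sesn2, 2 of 10, and for 17.2% of all targets. Over the 10 genes the median log2 fold change was -0.014, and over all targets 0.019, with 4 genes above 0 and 6 below it.

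**Figure D1:**
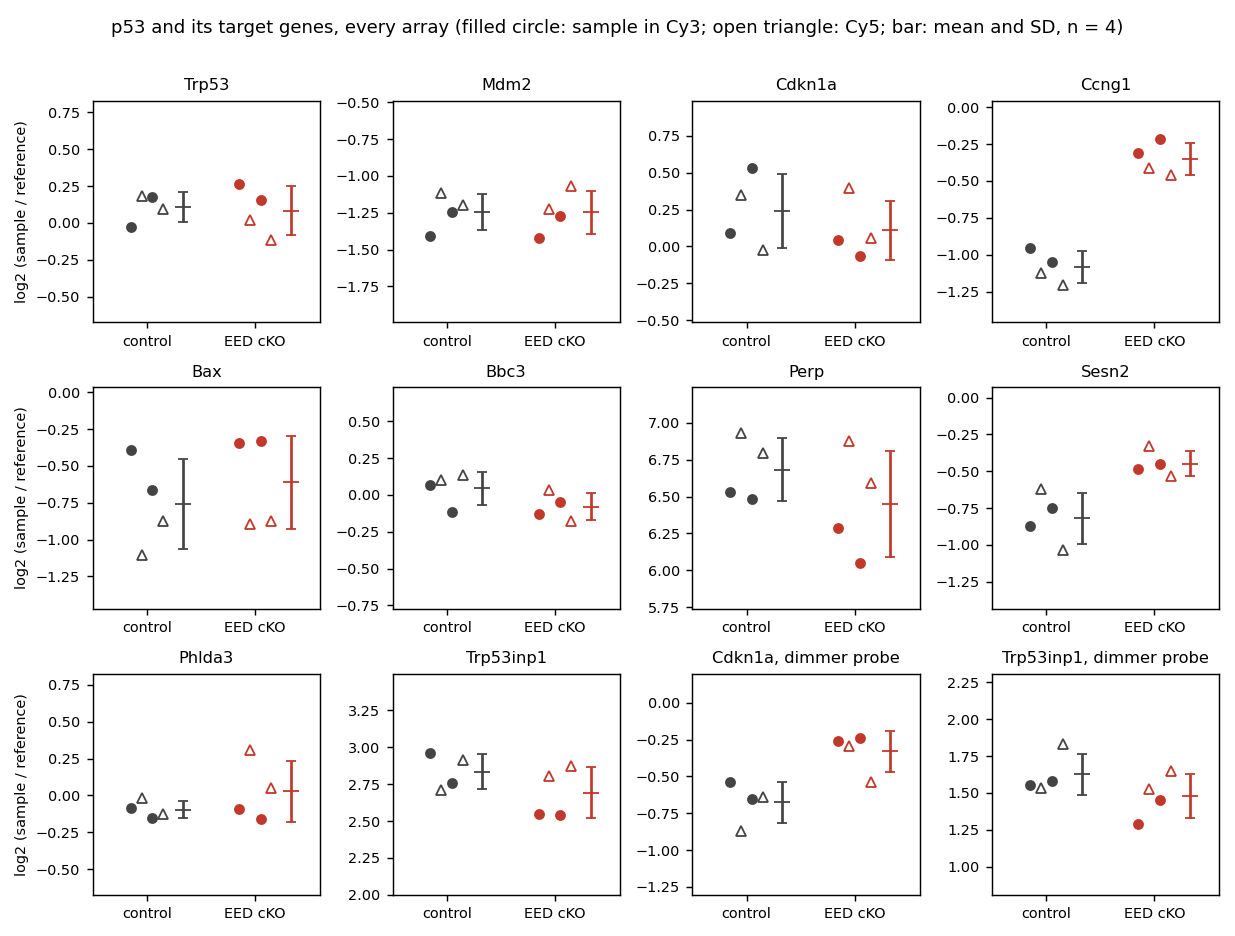
The log2 ratio of sample over reference is plotted for every array, with 1 panel for each of the 10 genes and for the dimmer probes of Cdkn1a and Trp53inp1. Every vertical axis spans the same number of log2 units but is centred on its own gene, filled circles are arrays with the sample in Cy3, open triangles those with it in Cy5, and bars give the mean and SD of 4 arrays. The EED cKO arrays of Ccng1 (-0.46 to -0.22) lie above all control arrays (-1.20 to -0.95), as do those of Sesn2 (-0.53 to -0.33 against -1.03 to -0.62), and the other 8 genes overlap on their main probe.

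Trp53 RNA was close to the reference in both genotypes. Its log2 ratio was 0.27, 0.02, 0.16 and -0.12 on EED cKO replicates 1 to 4. In control it was -0.03, 0.19, 0.18 and 0.09. The highest and the lowest of the 8 values were both EED cKO arrays, and the groups overlapped. The means were 0.082 ± 0.17 in EED cKO and 0.11 ± 0.099 in control (SD, n = 4 each). The log2 fold change was -0.025 (SE 0.092, adjusted p = 0.875), with a 95% interval from -0.23 to 0.18. In linear terms this interval spans 0.852-fold to 1.13-fold.

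Mdm2, the ligase and target that closes the feedback loop on p53, had the smallest difference of the 10 genes. EED cKO replicates 1 to 4 gave log2 ratios of -1.42, -1.22, -1.27 and -1.07, and the control replicates gave -1.41, -1.12, -1.25 and -1.20. In both genotypes replicate 1 was the lowest array, and the groups overlapped over nearly their whole range. Between genotypes the log2 fold change was -0.0019 (SE 0.076, adjusted p = 0.989) with a 95% interval from -0.17 to 0.17, in linear terms 0.888-fold to 1.12-fold.

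Cdkn1a encodes p21, the inhibitor of cyclin-dependent kinases through which p53 halts the cell cycle, and its probes differed from each other. On the brighter probe the log2 ratio was 0.05, 0.40, -0.06 and 0.06 in EED cKO and 0.09, 0.35, 0.53 and -0.02 in control. Replicate 2 of EED cKO and replicates 2 and 3 of control stood above the other 5 arrays, and the groups overlapped. The log2 fold change on this probe was -0.13 (SE 0.14, 95% interval -0.44 to 0.19, adjusted p = 0.562). The dimmer probe, which the files assign to the RefSeq transcript NM_001111099 where the brighter carries NM_007669, gave -0.26, -0.29, -0.24 and -0.54 in EED cKO and -0.54, -0.87, -0.66 and -0.64 in control. Here every EED cKO array lay above every control array, although EED cKO replicate 4 lay only just above control replicate 1. This probe was well above background on 4 EED cKO arrays and 2 control arrays. In a fit of every probe by itself its log2 fold change was 0.34 (SE 0.083, 95% interval 0.16 to 0.53, adjusted p = 0.0181), a 1.27-fold rise. The median of both probes gave 0.11 (adjusted p = 0.405). The reference annotation lists both transcripts for Cdkn1a but the tables used here do not tie a transcript to a start, so the dimmer probe was not matched to the upstream start that holds the p53 element shown above.

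Ccng1, the gene of cyclin G1, a p53 target that brings the phosphatase PP2A to Mdm2, had the clearest difference of the 10. Log2 ratios were -0.31, -0.41, -0.22 and -0.46 on EED cKO replicates 1 to 4 and -0.95, -1.12, -1.05 and -1.20 on the control replicates. The lowest EED cKO array lay above the highest control array, and within each genotype the arrays with the sample in Cy5 were the lower ones. Means were -0.35 ± 0.11 in EED cKO and -1.08 ± 0.11 in control (SD, n = 4 each), that is 0.785 and 0.472 of the reference level. As a log2 fold change this was 0.73 (SE 0.066, adjusted p = 0.000189), or 1.66-fold with a 95% interval from 1.50-fold to 1.84-fold, and an exact two-sided permutation of the 8 arrays gave p = 0.0286, the smallest it can give. Ccng1 was called under every one of the 26 alternatives run, with log2 fold changes from 0.59 to 0.81. When each array was left out in turn it ranged from 0.71 to 0.75. Its promoter carries the element with 1 mismatch shown above.

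Bax, the pore-forming protein of the outer mitochondrial membrane, split by dye more than by genotype. EED cKO replicates 1 to 4 gave log2 ratios of -0.35, -0.89, -0.33 and -0.88, and control replicates gave -0.39, -1.10, -0.66 and -0.87. In EED cKO both Cy3 arrays lay well above both Cy5 arrays, and in control the order was the same. With the dye in the fit the log2 fold change was 0.15 (SE 0.084, adjusted p = 0.249), with a 95% interval from -0.043 to 0.33. Bbc3 encodes PUMA, a BH3-only protein that triggers Bax. Its log2 ratio was -0.13, 0.04, -0.05 and -0.17 in EED cKO and 0.07, 0.10, -0.12 and 0.13 in control. Most control arrays were higher than most EED cKO arrays, but control replicate 3 was among the lowest and the groups overlapped. The log2 fold change of Bbc3 was -0.12 (SE 0.079, 95% interval -0.30 to 0.053, adjusted p = 0.293).

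Perp, which joins keratinocytes through desmosomes, stood far above the reference in both genotypes. The log2 ratio was 6.29, 6.88, 6.05 and 6.59 in EED cKO and 6.53, 6.93, 6.48 and 6.79 in control, on average 87.6 and 103 times the reference level. Each control array was above the EED cKO array of the same replicate number, while the groups as such overlapped, and the Cy5 arrays were the higher ones in both genotypes. The log2 fold change was -0.23 (SE 0.094, unadjusted p = 0.0354, adjusted p = 0.110), and its own 95% interval ran from -0.44 to -0.019. Without EED cKO replicate 2 it passed at -0.31 (adjusted p = 0.0435), and without EED cKO replicate 3 it was -0.16 (adjusted p = 0.284).

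Sesn2, which encodes sestrin 2, a stress-induced inhibitor of the growth kinase complex mTORC1, was the second gene called. EED cKO replicates 1 to 4 gave log2 ratios of -0.48, -0.33, -0.45 and -0.53, and control replicates gave -0.87, -0.62, -0.75 and -1.03. The EED cKO arrays were close together and all above the control arrays, with control replicate 2 the nearest to them. Means were -0.45 ± 0.085 and -0.82 ± 0.17 (SD, n = 4 each). The fit gave a log2 fold change of 0.37 (SE 0.097, adjusted p = 0.0250), or 1.29-fold with a 95% interval from 1.11-fold to 1.50-fold, and the exact two-sided permutation gave p = 0.0286, again the smallest possible. The call was near the threshold. It was lost without EED cKO replicate 1 (adjusted p = 0.0517), replicate 2 (0.0667) or replicate 3 (0.0647) and without control replicate 1 (0.0512) or replicate 4 (0.0543), and with median centring in place of loess the log2 fold change fell to 0.21 (adjusted p = 0.424). The direction was the same in all 26 alternatives.

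Phlda3, a small lipid-binding protein that holds back the kinase Akt, differed little. Its log2 ratio was -0.09, 0.31, -0.16 and 0.05 in EED cKO and -0.09, -0.02, -0.16 and -0.12 in control. A single array, EED cKO replicate 2, stood above the rest, and the other 7 lay between -0.16 and 0.05. Between genotypes the log2 fold change was 0.12 (SE 0.087, 95% interval -0.071 to 0.32, adjusted p = 0.342). Trp53inp1 encodes a stress-induced nuclear protein that helps p53 become phosphorylated. On its brighter probe the log2 ratio was 2.55, 2.81, 2.54 and 2.87 in EED cKO and 2.96, 2.71, 2.76 and 2.91 in control, about 6.46 and 7.14 times the reference. The EED cKO arrays with the sample in Cy3 were the lowest and the remaining arrays of the 2 genotypes were intermixed. The log2 fold change was -0.14 (SE 0.094, 95% interval -0.35 to 0.068, adjusted p = 0.311). The dimmer probe of Trp53inp1, fitted by itself, gave -0.15 (SE 0.085, adjusted p = 0.260), in the same direction and likewise not called.

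**Figure D2:**
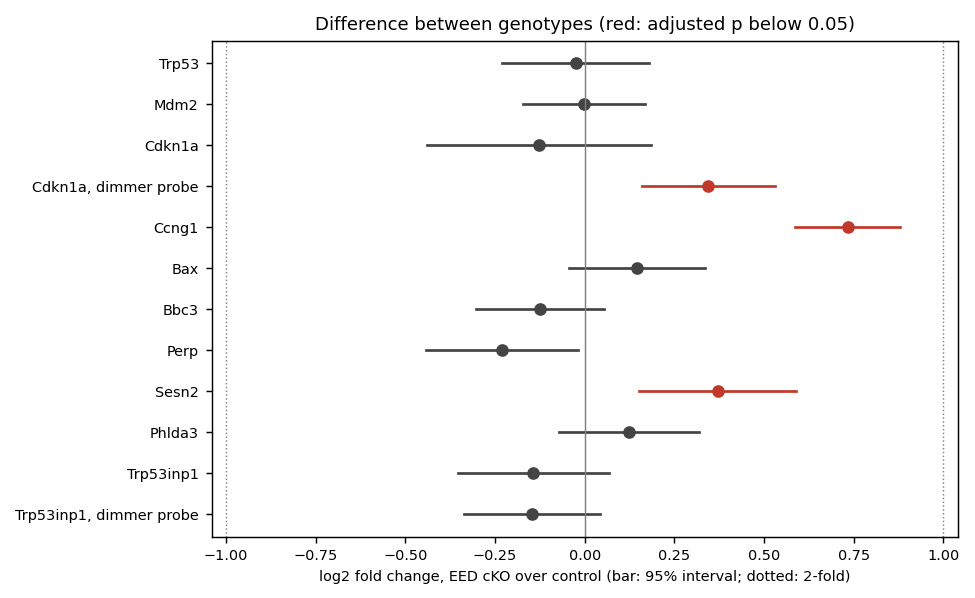
The difference between genotypes is plotted for each of the 10 genes and the dimmer probes as the log2 fold change of EED cKO over control, with its 95% interval as a bar, red where the adjusted p was below 0.05, and dotted lines at a 2-fold change. Ccng1 (0.73), Sesn2 (0.37) and the dimmer probe of Cdkn1a (0.34) are the red points, no interval reaches the 2-fold lines, and the interval of Perp ends just below 0.

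The other genes of the pathway were grouped by their part in it, and 40 of 130 tested genes (30.8%) were called, 21 higher and 19 lower. Beside them stand 21.7% of all targets and 25.8% of the targets with a gene symbol. The 40 became 24 without EED cKO replicate 3, 22 without EED cKO replicate 4 and 21 without control replicate 2. Of 26 upstream regulators 8 fell, 1 rose and 17 were not called, where 9.93% of all targets were called lower, and their median log2 fold change was -0.22 against 0.019 for all targets. The gene that rose was Cdkn2a, whose locus makes both Arf, the inhibitor of Mdm2, and the kinase inhibitor Ink4a. Its log2 ratio was -1.50, -1.75, -1.53 and -1.98 in EED cKO and -4.99, -5.57, -5.28 and -5.61 in control, a rise of 12.7-fold (log2 fold change 3.67, SE 0.086, adjusted p = 7.14e-08). A second Cdkn2a probe rose 2.20-fold (adjusted p = 2.46e-05). The files give both probes the same RefSeq transcript, so Arf and Ink4a RNA were not told apart. Among the regulators that fell, Huwe1, a ubiquitin ligase for p53, had a log2 fold change of -0.56 (adjusted p = 0.00320), and Ppp1r13l (iASPP), an inhibitor of p53, of -0.41 (adjusted p = 0.0309). Usp7, which removes ubiquitin from Mdm2 and p53, had -0.36 (adjusted p = 0.0212) on its brighter probe and -0.22 on another (adjusted p = 0.0626). The calls of 2 of them depended on single arrays. Ppp1r13l lost its call without EED cKO replicate 1, 3 or 4 or control replicate 2 or 3 (adjusted p up to 0.101), and Usp7 without EED cKO replicate 1 or 4 or control replicate 2 (up to 0.0718). Mdm4, the partner of Mdm2, had a log2 fold change of 0.028 (adjusted p = 0.787).

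The relatives of p53 gave 0 calls of 2 on their brighter probes. At an unadjusted p below 0.05 there were also 0, beside 8293 of the 23139 targets. Trp73 had a log2 fold change of -0.062 (adjusted p = 0.666). Trp63, the master gene of stratified epithelia, had 0.042 (adjusted p = 0.756) on the probe with the brighter mean of both channels, and 0.23 (adjusted p = 0.0412) on it in the sample channel alone. Its other probe gave log2 ratios of 6.65, 6.97, 7.05 and 6.89 in EED cKO and 7.29, 7.57, 7.45 and 7.59 in control. On this other probe all EED cKO arrays lay below all control arrays, with a log2 fold change of -0.59 (SE 0.095, adjusted p = 0.00338). The median of both probes gave -0.27 (adjusted p = 0.0446).

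Among 66 tested genes on 5 further lists of p53 targets, 24 (36.4%) were called, 18 higher and 6 lower, with a median log2 fold change of 0.051 beside 0.019 for all targets. Over all targets 21.7% were called, 11.8% higher and 9.93% lower, and over those with a gene symbol 25.8%. With median centring the split among the 66 was 6 higher and 5 lower. Without EED cKO replicate 3, and likewise without control replicate 2, 11 were higher and 4 lower. Of the targets that act on the cell cycle, 6 of 10 rose and 0 fell, beside 11.8% of all targets called higher. Plk2, a stress-responsive kinase, went from log2 ratios of -2.04, -1.89, -2.08 and -1.55 in control to -1.18, -1.17, -1.28 and -1.32 in EED cKO (1.58-fold, adjusted p = 0.00313). Btg2, an antiproliferative cofactor, rose 1.50-fold (adjusted p = 0.00161). For both genes the arrays of the genotypes did not overlap. Plk3 rose 1.57-fold (adjusted p = 0.0354), but with 1.71 control replicate 3 reached into the EED cKO range of 1.63 to 1.95. Its call was lost without EED cKO replicate 2, 3 or 4 or control replicate 1, 2 or 4 (adjusted p up to 0.114). Psrc1, Gadd45a and Sfn were the other genes that rose, with log2 fold changes of 0.32, 0.29 and 0.23. They were named after their values were seen, to complete the 6. Zmat3, Gtse1, Zfp385a and Ckap2 were tested and not called.

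Of 14 targets with a part in apoptosis 4 rose and 1 fell, where 11.8% of all targets were called higher and 9.93% lower. Pmaip1 encodes NOXA, a BH3-only protein that neutralises Mcl1, and apart from Cdkn2a it was the only pathway gene called at 2-fold. Log2 ratios of Pmaip1 were 2.18, 2.35, 1.78 and 1.74 in EED cKO and 0.02, 0.93, 0.71 and 0.38 in control. The lowest EED cKO array was well above the highest control array. It rose 2.83-fold (log2 fold change 1.50, SE 0.20, adjusted p = 0.00148) and was called in all 26 alternatives, from 1.34 to 1.78. Rps27l rose 1.36-fold (adjusted p = 0.0110). Steap3, a metalloreductase, rose 1.36-fold on its brighter probe (adjusted p = 0.00589), while another probe gave a log2 fold change of 0.048 (adjusted p = 0.696). Trp53i11 fell, with log2 fold changes of -0.56 (adjusted p = 0.00174) and -0.35 (adjusted p = 0.0165) on its probes. Of the BCL2 family and caspases, 3 of 17 (17.6%) were called, beside 21.7% of all targets. The survival gene Bcl2 rose 1.47-fold (adjusted p = 0.00156) and the BH3-only gene Bik 1.34-fold (adjusted p = 0.00673), while Casp9, the initiator caspase of the mitochondrial pathway, had a log2 fold change of -0.56 (adjusted p = 0.00785).

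**Figure D3:**
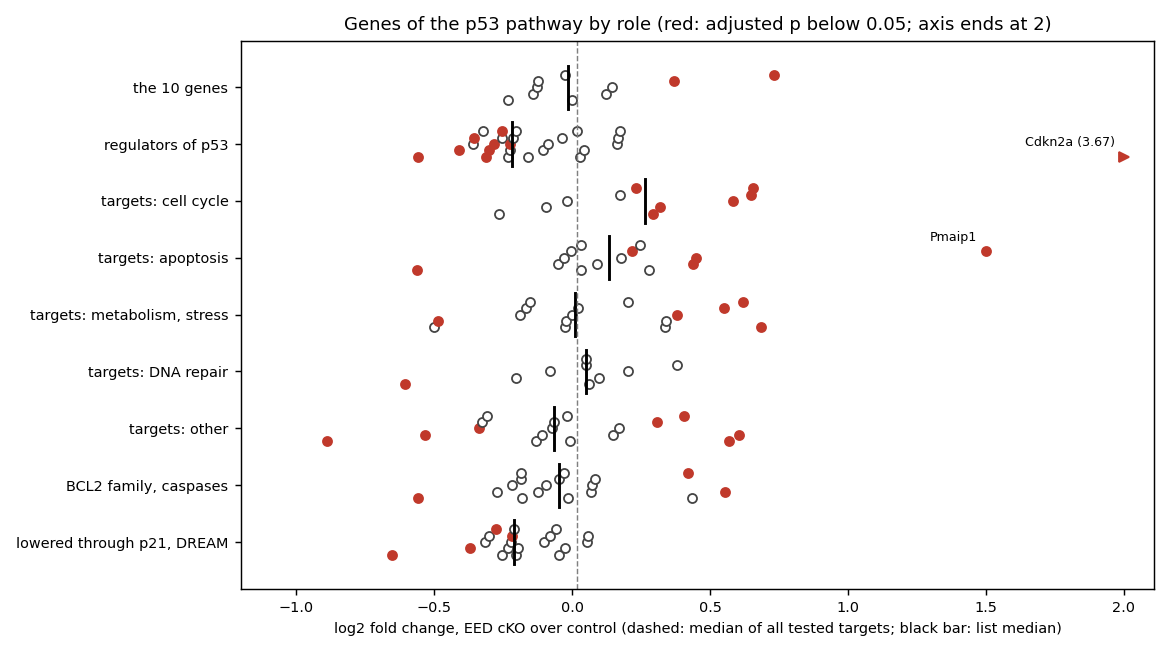
Each point is a tested gene of the p53 pathway, placed by its log2 fold change of EED cKO over control, in rows by role, red where the adjusted p was below 0.05, with a black bar at the median of each list and a dashed line at the median of all tested targets (0.019). The medians of the cell cycle targets (0.26) and the apoptosis targets (0.13) lie to the right of the dashed line, those of the regulators (-0.22) and of the genes lowered through p21 (-0.21) to the left, and Cdkn2a is drawn at the end of the axis with its value.

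Metabolism and stress targets gave 4 genes that rose and 1 that fell, of 16 (31.2% called, beside 21.7% of all targets). Ptgs2, the inducible prostaglandin synthase, rose 1.61-fold (adjusted p = 0.00135), with 2 of 4 control arrays well above background. Ephx1, an epoxide hydrolase, rose 1.54-fold (adjusted p = 0.00373) and on its other probe 1.99-fold (adjusted p = 9.23e-05). Sat1, which breaks down polyamines, rose 1.46-fold (adjusted p = 0.00374). Aldh4a1, a mitochondrial dehydrogenase of proline breakdown, fell with a log2 fold change of -0.49 (adjusted p = 0.0208), a call lost without EED cKO replicate 2, 3 or 4 or control replicate 2 (adjusted p up to 0.0706). Sesn1, the relative of Sesn2 and also a p53 target, did not follow it, with a log2 fold change of -0.17 (adjusted p = 0.105). Sesn1 was named for this comparison after its value was seen.

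Of 9 DNA repair targets 0 rose, where 11.8% of all targets were called higher. The list of other targets gave 4 genes that rose and 3 that fell of 17 (41.2% called). Beside this stand 21.7% of all targets called, 11.8% higher and 9.93% lower. The median log2 fold change of this list was -0.066, with 11 of 17 below 0. Slc19a2 and Crip2 rose 1.52-fold and 1.48-fold (adjusted p = 0.0313 and 0.0249). Epha2 fell with a log2 fold change of -0.53 (adjusted p = 0.00283), Rap2b with -0.34 (adjusted p = 0.0145) and Thbs1 with -0.89 (adjusted p = 0.0272). Single arrays decided 3 of these calls. Slc19a2, Crip2 and Thbs1 each lost theirs without EED cKO replicate 2, 3 or 4 or control replicate 2 or 4 (adjusted p up to 0.0899).

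Genes that p53 lowers through p21 and the DREAM complex, which drive mitosis, gave 0 rises and 4 falls of 19, with 17 of 19 below 0 and a median of -0.21. The share called, 21.1%, was close to the 21.7% of all targets called in either direction. All of these calls were falls, where 9.93% of all targets were called lower. Mki67, the proliferation marker, had log2 ratios of -3.30, -3.22, -3.14 and -3.47 in EED cKO and -2.69, -2.35, -3.0 and -2.47 in control. All EED cKO arrays lay below all control arrays (log2 fold change -0.65, adjusted p = 0.00854). Plk1 had -0.37 (adjusted p = 0.0311) and Ccna2 -0.27 (adjusted p = 0.0379), and both lost the call without EED cKO replicate 2 or 4 or control replicate 1, 2 or 4 and 1 further EED cKO array each, replicate 3 for Plk1 and replicate 1 for Ccna2 (adjusted p up to 0.115). Aurkb was the remaining gene called, at -0.22 (adjusted p = 0.0492), and was named after its value was seen.

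**Figure D4:**
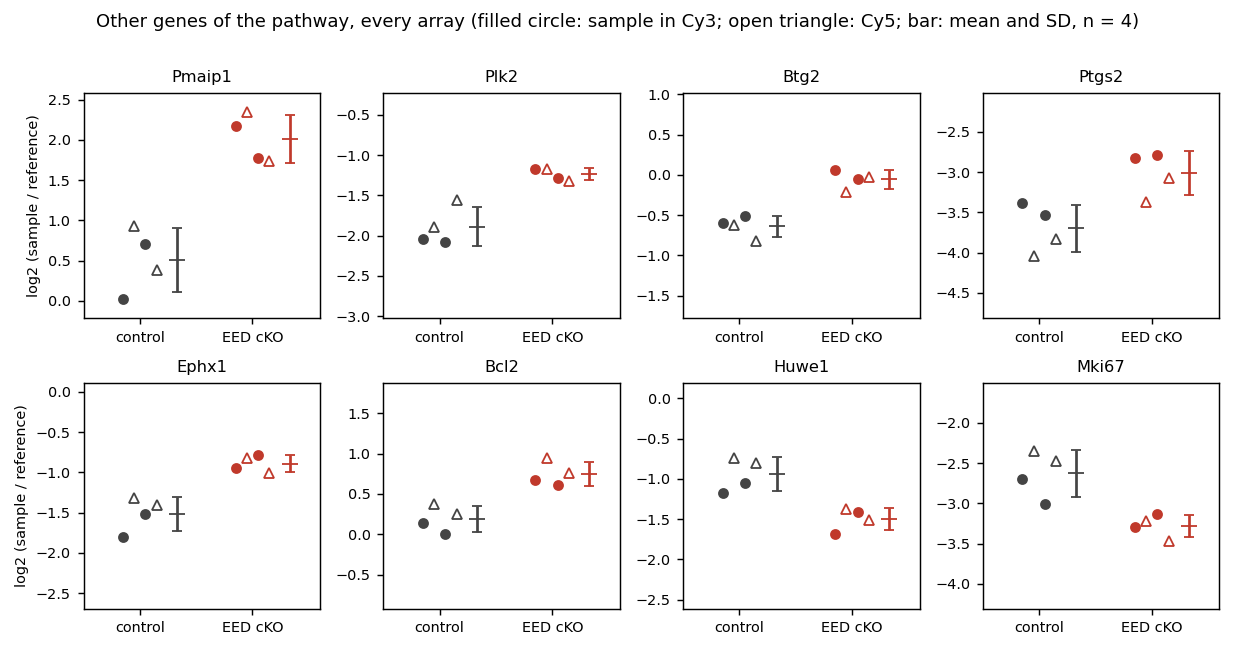
The log2 ratio of sample over reference is plotted for every array and 8 other genes of the pathway, with filled circles for the sample in Cy3, open triangles for Cy5, and the mean and SD of 4 arrays. In each panel the EED cKO and control arrays form groups that do not overlap, with Pmaip1, Plk2, Btg2, Ptgs2, Ephx1 and Bcl2 higher and Huwe1 and Mki67 lower in EED cKO. Called genes whose groups overlap, such as Plk3 and Bik, are not drawn. Groups did not overlap for 32 of the 130 other pathway genes tested, beside 17.2% of all targets.

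RNA of marker genes of other cell types differed between the genotypes as well. Beside the counts that follow, 11.8% of all targets were called higher and 9.93% lower. All 6 Merkel cell markers rose in EED cKO (mean log2 ratio -0.95 to -0.82 against -1.67 to -1.53 in control), as did both endothelial markers tested, Pecam1 and Kdr (list mean 0.99 to 1.41 against 0.20 to 0.64, with the other 2 well above background on no array). Of the basal epidermal markers 3 of 6 fell (list mean 2.92 to 3.36 against 3.09 to 3.67), and 2 of 5 immune markers and 1 of 7 fibroblast markers rose. No suprabasal or melanocyte marker was called, of 5 each, nor an erythroid or skeletal muscle marker, of 2 each. Their part in the differences of Ccng1, Sesn2 and the other genes was not tested. In such bulk RNA, fewer cells of a type and less RNA per cell cannot be told apart.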

How the data were processed

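RNA of 8 epidermis samples was measured on 2-colour Agilent arrays. The authors analysed the scanned images with Agilent Feature Extraction 12.0.1.1. They deposited median spot and background intensity, together with the log10 of Cy5 over Cy3, which the software took from background-subtracted, dye-normalized signals. A deposited series table holds log2 values that equalled sample over reference of those processed signals, uncentred. Here spot intensity was corrected by normexp (offset 50) and loess, control and outlier spots were left out, and the sign was changed on arrays with the sample in Cy3. The offset understates fold changes of dim spots. RefSeq accessions (28026 of 29796 matched) named the probes, and a gene with several was taken by its brightest. A target was tested if its sample signal was well above background on 3 or more of the 4 arrays in either genotype. Missing values (19, none in the 10 genes) were left missing.

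A linear model with genotype and dye terms was fitted to all 23139 targets by limma 3.58.1 in R 4.3.3, with moderated variances (eBayes) and Benjamini-Hochberg adjustment. Alternatives changed the background correction, values, centring, filter, probe summary, covariates, weights, test, channel, dye or arrays, 1 at a time, except that the methods' t-test has neither dye term nor moderation and was also read without adjustment. Same-numbered samples deviated together (correlations 0.49, 0.68, 0.33 and 0.36 for replicates 1 to 4), where the number also marks slide column and dye. After removal of the dye the correlation was 0.13 for replicates 1 and 3 and 0.46 for replicates 2 and 4. Replicates of the same dye must then share a value, because each genotype had only a pair of arrays per dye. The labels and the paper's methods differ in the times of dispase and trypsin. The number of arrays limits the precision.

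The members and lists were chosen with earlier results of these data known. The genes named are the 10 members, Trp63, Trp73, Cdkn2a and Mdm4, every pathway gene called at 2-fold, the 3 largest called changes in each direction of each other list, and Eed. Genes named after their values were seen are marked. Some genes that this rule takes are not reported here.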

Additional observations from a re-analysis of the deposited data

Results flagged for a closer look

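Of 88 groups of 4 arrays checked for a sample far from the others (each genotype for every named gene and for the second probes of Cdkn1a and Trp53inp1), 1 was marked, where chance marks about 1 in 20. On the dimmer probe of Trp53inp1, control replicate 4 had a log2 ratio of 1.83, while the other 3 control arrays lay between 1.54 and 1.58.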

How the results depend on the processing

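Ccng1 was called in all 26 alternatives and Sesn2 in 15. The 2 called members became 1 with the Feature Extraction log ratio, the deposited table, median centring, the methods' t-test after Benjamini-Hochberg and within Cy3 or Cy5 arrays, and ranged from 1 to 2 when arrays were left out. None of the 10 was called at 2-fold in any alternative. The methods' t-test at its unadjusted threshold called 5604 targets, Ccng1 and Sesn2 among them, and 275 with the 2-fold limit that the methods add, none of the 10 among them.

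All targets called went from 5024 to 2554 with median centring, 2358 without a dye term, 2804 with the Y-linked covariate, 913 with the adjusted t-test, 496 within Cy3 arrays and 2462 within Cy5 arrays, and from 2722 to 5064 with arrays left out. At 2-fold 278 became 699 with the Feature Extraction log ratio, 698 with the deposited table and 175 with the adjusted t-test (255 to 317 with arrays left out). The 40 other pathway genes called became 17, 20, 23, 10, 5 and 23 under the first 6 of these settings in the order given, and 21 to 42 with arrays left out. The 18 higher and 6 lower calls among 66 targets became 6 and 5 with median centring, 11 and 5 with the Y-linked covariate and 4 and 0 within Cy3 arrays. The causes were not tested.

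With the replicate number, by which samples pair, as a block (replicate block), 5983 targets, 50 other pathway genes and the same members, Ccng1 and Sesn2, were called, and no member call changed. Signs turned in values that were not called in the reported fit. Trp53 was 0.043 with the Y-linked covariate, 0.14 within Cy3 arrays and 0.025 to 0.034 without control replicate 2 or EED cKO replicate 4 (left-out range -0.099 to 0.034). Mdm2 was 0.011 without background correction, 0.076 with the deposited table as with the Feature Extraction log ratio, 0.055 with the Y-linked covariate and in the sample channel alone, and 0.014 within Cy5 arrays (left-out range -0.036 to 0.034). Cdkn1a was 0.11 over the median of probes, 0.058 with the Y-linked covariate and 0.066 within Cy5 arrays, Phlda3 -0.0022 within Cy3 arrays, Trp53inp1 0.028 within Cy5 arrays, and Mdm4 -0.053 with median centring and -0.0044 within Cy3 arrays. Trp63 was -0.11 with median centring, -0.27 over the median of probes (called, adjusted p = 0.0446) and -0.012 within Cy5 arrays, but 0.23 in the sample channel alone (called, adjusted p = 0.0412). Aquantile leaves log ratios as they are and changed nothing.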
